A study of Mus musculus with 8 samples.

Results

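The CD209 genes of the mouse are a cluster of C-type lectin genes related to human DC-SIGN. All 7 of them (Cd209a, Cd209b, Cd209c, Cd209d, Cd209e, Cd209f and Cd209g) were represented on the arrays, among 21368 named genes. The members were taken by name: every non-control probe annotated to a RefSeq transcript of one of these genes, which gave 9 probes, 1 per gene except for Cd209a and Cd209c with 2 each. The family itself was chosen by an earlier result of the same samples, the higher Cd209d signal in Fto -/- aorta. The Cd209d difference is therefore described here without a test, and the other paralogues, which came with it by name, are given with their tests.

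RNA of the thoracic aorta was measured in 4 samples of Fto -/- mice, which lack the RNA demethylase gene Fto, and in 4 samples of Fto +/+ mice. All animals were labelled male, on a mixed C57BL6J/NMRI background, and no age is given in the labels. Each sample was read with a single dye on its own array of 1 slide. The labels do not say whether the samples of a genotype came from separate animals, so each p-value speaks only to the variation among these 8 arrays, which may be technical. In whole tissue, a change in the number of cells that express a gene and a change in its RNA per cell cannot be told apart.

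Between 44.5% and 47.8% of probes were well above background per array, and the 75th percentile of intensity ran from 294.9 to 415.6. Fto intensity was 49.2 to 70.1 in the Fto -/- and 408.9 to 751.5 in the Fto +/+ arrays, following titles and genotype fields, while the free-text descriptions carry the opposite genotypes. Both Xist probes were well above background on all 8 arrays in both genotypes, while Kdm5d, Zfy1, Ddx3y and Eif2s3y, genes of the Y chromosome with 1 probe each, were so on none, which goes against the label male. Of the 2 Uty probes, one passed on 1 array and the other on 0. The smooth muscle list, with Acta2 and Myh11, was measured in full (8 of 8 genes). Rag1, a gene of developing lymphocytes, was above background on 4 arrays: Fto -/- replicates 1, 3 and 4 and Fto +/+ replicate 2. Slide row was uneven, since row 1 held Fto -/- replicates 1, 2 and 3 with Fto +/+ replicate 1.

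CD209 proteins such as DC-SIGN are transmembrane receptors of dendritic cells and macrophages. The carbohydrate-recognition domain of DC-SIGN binds mannose- and fucose-rich glycans in a calcium-dependent manner, and the paralogues need not share each trait. Receptors of this kind take up glycosylated antigens and microbes, and the human receptor also binds adhesion molecules of the ICAM family. Cd209a encodes the paralogue usually called mouse DC-SIGN, and Cd209b encodes SIGNR1, best known from macrophages of the splenic marginal zone. The RefSeq gene table lists the others as SIGNR2 (Cd209c), SIGNR3 (Cd209d), SIGNR4 (Cd209e), SIGNR8 (Cd209f) and SIGNR7 (Cd209g). In the artery wall such receptors are found on myeloid cells, most of which lie in the adventitia.

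Sequence just before the starts of the 4 genes with a tested probe is shown because the values below turn on them. It was read from RefSeq promoter windows of build GRCm38.p6, which cover the 250 bases before 1 listed start of each gene and hold all 7 members. In the gene table a longer transcript of Cd209d begins 49 bases inside its window and one of Cd209f 74 bases inside, and the windows of Cd209c and Cd209g lie wholly past the first listed start. Printed are the bases before every listed start of Cd209a (chr8:3748985-3749234, minus strand), Cd209d (chr8:3878549-3878749, minus strand) and Cd209f (chr8:4105839-4106014, minus strand), and for Cd209g a stretch of 30 bases (chr8:4134628-4134657, plus strand). The arrays themselves are annotated on mm9. Capitals mark 4 motifs, searched on both strands. The first is CCGGAA, a core bound by ETS factors. The second is GAGGAA, a core of PU.1, the ETS factor of myeloid cells. The third is TGAGTCA, the AP-1 site. The last is TATAAA, a core promoter element that lies near the start of many genes.
Cd209a: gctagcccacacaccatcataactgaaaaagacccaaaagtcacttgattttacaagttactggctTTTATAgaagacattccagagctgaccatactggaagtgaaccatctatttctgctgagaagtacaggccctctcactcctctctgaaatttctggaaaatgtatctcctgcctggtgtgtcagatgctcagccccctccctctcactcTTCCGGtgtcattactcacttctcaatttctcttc
Cd209d: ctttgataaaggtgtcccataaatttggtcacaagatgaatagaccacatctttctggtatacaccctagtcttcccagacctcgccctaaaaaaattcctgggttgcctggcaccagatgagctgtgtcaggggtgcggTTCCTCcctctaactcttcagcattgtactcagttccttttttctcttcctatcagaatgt
Cd209f: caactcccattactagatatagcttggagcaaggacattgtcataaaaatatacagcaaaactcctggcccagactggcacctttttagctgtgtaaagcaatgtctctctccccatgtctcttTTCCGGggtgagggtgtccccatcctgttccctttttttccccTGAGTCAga
Cd209g: tttttttccccTGAGTCAgagaagaatcga

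The windows of Cd209f and Cd209g were the closest pair of the family. Aligned end to end they were identical in 77.7% of columns, and they shared an unbroken run of 154 bases, which ended 1 base before the start of Cd209f and 15 bases before that of Cd209g. The other 20 pairs of members were identical in 41.7% to 53.8% of columns, with 41.8% for Cd209a and Cd209d. CCGGAA stood in 5 of the 7 windows (Cd209a, Cd209b, Cd209e, Cd209f and Cd209g) and in 12% of all 32851 promoter windows of that length. TGAGTCA was found in Cd209f and Cd209g, 2 of 7, against 4.46% of all windows, and in both genes it lay in the shared run together with CCGGAA and TATAAA, so the 30 bases printed for Cd209g also occur in the Cd209f window. TATAAA was also in the Cd209a window, which makes 3 of 7 against 12.4%. GAGGAA was in the Cd209d window and in 23.3% of all windows. No match overlaps another, and the TATAAA matches of Cd209f and Cd209g lie outside the printed bases. Counts and alignments cover the whole 250-base windows. The motifs were chosen with these sequences in view, and a match is a string of letters, not a measured site.

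Detection differed from probe to probe. Of the 9 probes, 4 passed the detection filter, signal well above background in 4 or more samples (45.4% of all 55681 probes did), 3 of them on all 8 (39.9% of all probes). These 3 were the Cd209d, Cd209f and Cd209g probes, and the fourth was 1 of the Cd209a probes, above background on 4 Fto -/- and 2 Fto +/+ arrays. The Cd209b probe and 1 Cd209c probe were above background on 2 Fto -/- arrays each, the Cd209e probe on 1 Fto -/- array, and none of these 3 on any Fto +/+ array. The other Cd209a probe and the other Cd209c probe were above background on no array, as were 45.3% of all probes. The 2 probes of Cd209a thus disagree, and so do those of Cd209c, so detection is given by probe and not by gene. The count of 4 lies near the share over all probes, and nothing is read from these counts. Signals of different probes cannot be ranked against each other on these arrays, so no order of abundance among the paralogues is given.

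**Figure D1:**
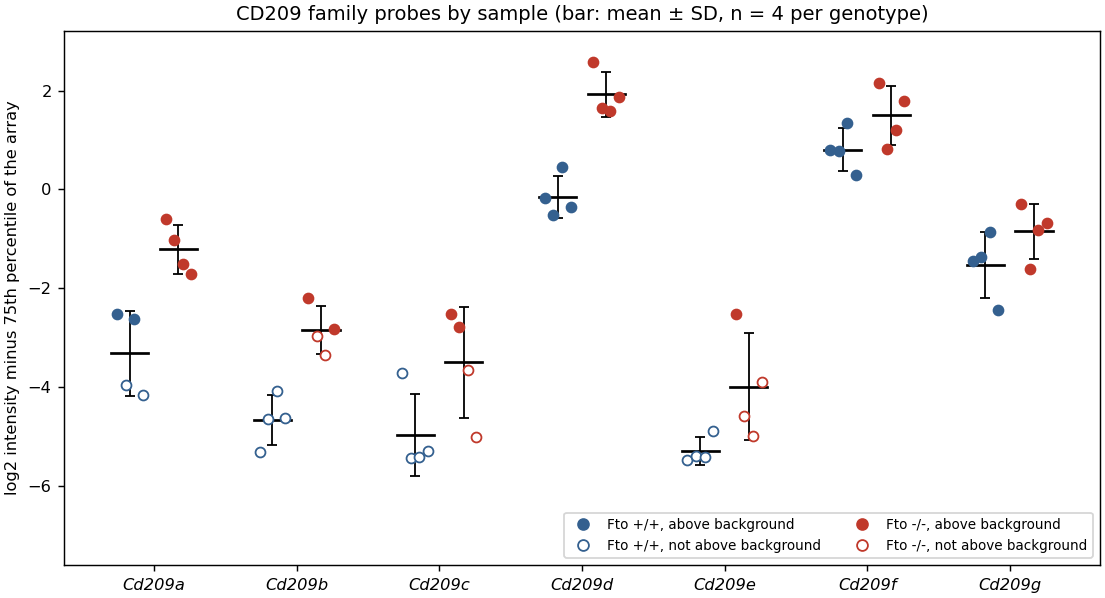
Level of each CD209 probe that was well above background on at least 1 array, by sample. The vertical axis is the log2 intensity minus the 75th percentile of the array, filled points were well above background, open points were not, and bars give the mean ± SD of 4 samples. The genotypes are apart for Cd209a, Cd209b and Cd209d and overlap for Cd209c, Cd209e, Cd209f and Cd209g.

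Cd209d, which encodes SIGNR3, was the one of the 4 tested probes past the adjusted threshold of 0.05, the call that chose the family, and 0 were lower. The call was lost with slide row as a block, a setting that matters because the rows hold the genotypes unevenly, and with the replicate number as a block. Over all 25292 tested probes 0.842% were higher and 0.814% lower in Fto -/- by that threshold (limma, Benjamini-Hochberg adjusted). Nothing is read from the count. The Cd209d intensities were 2246, 1001, 889.7 and 1225 in Fto -/- replicates 1 to 4 and 330.3, 290.4, 524.4 and 249.7 in Fto +/+ replicates 1 to 4. Every Fto -/- sample was thus brighter than every Fto +/+ sample, with Fto -/- replicate 1 the brightest and Fto +/+ replicate 3 the nearest of the controls. On the scale used for all comparisons, log2 intensity minus the 75th percentile of the array, the level was 1.92 ± 0.46 in Fto -/- and -0.15 ± 0.43 in Fto +/+ (SD, n = 4 each). The difference of 2.07 is a 4.21-fold higher signal.

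Cd209a, mouse DC-SIGN, had a difference of the same size in the main fit but missed the threshold. Its brighter probe read 247.5, 156, 104.1 and 102.7 in Fto -/- and 64.8, 26.7, 62.1 and 17.8 in Fto +/+ replicates 1 to 4. All 4 Fto -/- values lay above all 4 Fto +/+ values, and Fto +/+ replicates 2 and 4 were not well above background. The level was -1.21 ± 0.50 in Fto -/- and -3.32 ± 0.87 in Fto +/+ (SD, n = 4 each). This probe entered the test through the genotype in which it was high, since its 4 Fto -/- arrays alone met the filter. Its difference rests in part on the 2 controls that were not well above background. The scanner still called its signal positive and significant on all 8 arrays. The difference was 2.11 ± 0.42 (SE), with a limma adjusted p of 0.0510 over the tested probes and 0.134 with all probes tested, where no filter applies. The limma adjusted p was 0.0126 with normexp background correction and 0.0366 with a moderated variance that follows the mean. With normexp the log2 difference was 1.04, against 1.87 for Cd209d, so the equal size depends on the background method. In 17 of the 20 alternatives that gave it a value it stayed above 0.05.

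Cd209f and Cd209g were present on every array of both genotypes and neither passed the test. The Cd209f probe read 1674, 566.2, 682.6 and 1164 in Fto -/- and 652.8, 711, 973.9 and 390.7 in Fto +/+ replicates 1 to 4. In intensity Fto -/- replicate 2 lay below 3 of the 4 controls, and after scaling 14 of the 16 pairs of samples had the higher level in Fto -/-, so the genotypes overlapped. The log2 difference was 0.69 ± 0.32 (SE; 95% interval -0.03 to 1.41; limma adjusted p = 0.278). The Cd209g probe read 305.8, 105.1, 166.8 and 209.8 in Fto -/- and 137.3, 160.8, 210.2 and 59.1 in Fto +/+. Within each genotype the samples stood in the same order of intensity for both genes, and 13 of 16 pairs had the higher Cd209g level in Fto -/-. The log2 difference of Cd209g was 0.68 ± 0.37 (SE; 95% interval -0.15 to 1.51; limma adjusted p = 0.351). The intervals reach from 0.982-fold to 2.66-fold for Cd209f and from 0.899-fold to 2.86-fold for Cd209g. The exact two-sided permutation p was 0.143 for Cd209f and 0.200 for Cd209g.

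Of the 3 partly detected paralogues, Cd209b, which encodes SIGNR1, had the clearest separation. Its probe read 81.7, 40.6, 28.8 and 47.3 in Fto -/- and 9.41, 16.6, 22.4 and 13.1 in Fto +/+ replicates 1 to 4, without overlap, although Fto -/- replicates 1 and 4 were the ones above background. No fold is given for it, since 2 Fto -/- samples and all 4 controls were not well above background. It was too dim for the main test, and its limma adjusted p was 0.0835 when all probes were tested. The higher-reading Cd209c probe gave 65, 46.2, 23.4 and 10.4 in Fto -/- and 28.4, 9.61, 8.97 and 8.2 in Fto +/+, with the genotypes overlapping. Cd209e read 65.3 in Fto -/- replicate 1 and between 8.36 and 22.6 in the other 7 samples. For Cd209c and Cd209e the floor of detection exceeds the mean level in Fto -/-, so no fold is given. Their adjusted p values with all probes tested were 0.471 and 0.416.

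Genotypes did not overlap, with Fto -/- higher, in 2 of the 4 tested CD209 probes (4.75% of all tested probes), and with Fto -/- lower in 0 (7.36%). Nothing is read from this count, since the 2 are Cd209d, which chose the family, and Cd209a, which passed the filter through Fto -/-. Fto -/- replicate 1 was the highest of the 8 samples for all 7 probes that were detected on any array. The same sample had the highest level of the macrophage list (0.54) and of the dendritic cell list (0.86), where a list level is the mean of its tested genes after each was centred over the 8 arrays. Without that sample the log2 difference was 1.85 for Cd209d, 1.91 for Cd209a, 0.47 for Cd209f and 0.50 for Cd209g. Without any 1 of the 8 samples the difference was 1.83 to 2.37 for Cd209a, 0.47 to 0.92 for Cd209f and 0.38 to 0.93 for Cd209g, whose lowest value came without Fto +/+ replicate 4.

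Differences between paralogues were also taken within each array. Those with Cd209a include 2 Fto +/+ arrays, replicates 2 and 4, on which that probe was not above background. They also depend on the background method, since with normexp the genotype difference was 1.87 for Cd209d and 1.04 for Cd209a. The log2 distance from Cd209d to Cd209a was 3.13 ± 0.37 in Fto -/- and 3.17 ± 0.63 in Fto +/+, and that from Cd209f to Cd209g was 2.35 ± 0.21 and 2.33 ± 0.27 (SD, n = 4 each). The distance from Cd209d to Cd209f, in contrast, lay between 0.07 and 0.82 in Fto -/- and between -1.29 and -0.65 in Fto +/+ arrays, a shift of 1.38. From Cd209d to Cd209g the shift was 1.39 and from Cd209a to Cd209f 1.42. In the latter the genotypes overlapped, with ranges of -3.50 to -1.86 against -4.74 to -3.33. The signals of Cd209a and Cd209d thus stood higher on average relative to those of Cd209f and Cd209g on the Fto -/- arrays. Part of this follows from how Cd209d was chosen and from the filter, which Cd209a passed through Fto -/-, so it carries no test. After removing each genotype's mean, Pearson's r over the 8 arrays was 0.92 for Cd209f with Cd209g, 0.83 for Cd209d with Cd209f, 0.69 for Cd209a with Cd209d and 0.48 for Cd209a with Cd209f. These probes share arrays and scaling, and whether the Cd209f and Cd209g probes can bind each other's transcript was not tested, since probe sequences were not used here.

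**Figure D2:**
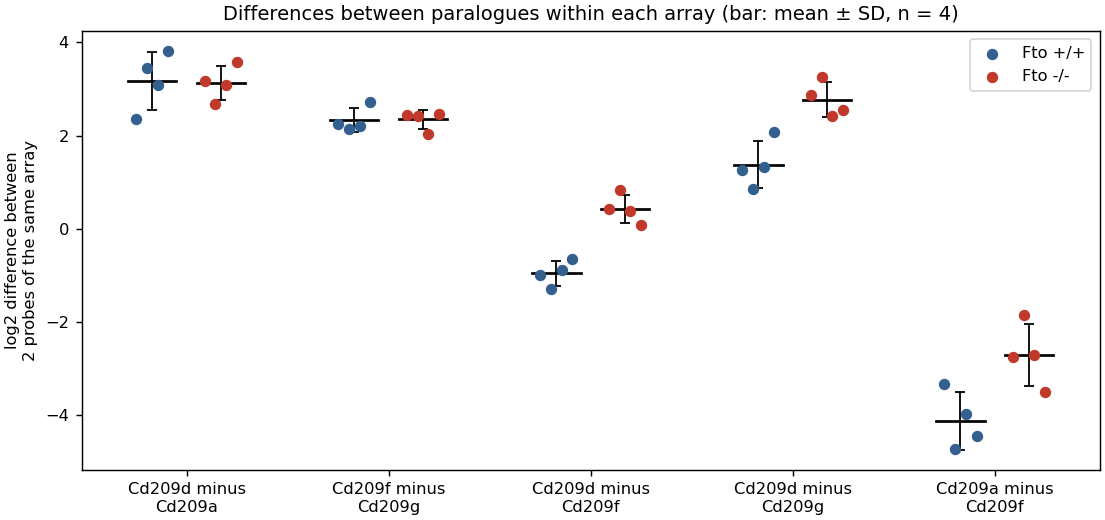
Log2 difference between 2 CD209 probes of the same array, for 5 pairs of paralogues, with 4 arrays per genotype and bars for the mean ± SD. Cd209d minus Cd209a and Cd209f minus Cd209g have nearly equal means in both genotypes, while the other 3 differences have higher means in Fto -/-. Cd209d minus Cd209f and Cd209d minus Cd209g are higher in every Fto -/- array than in every Fto +/+ array. For Cd209a minus Cd209f the genotypes overlap. Each of these other 3 includes Cd209d, which chose the family, or Cd209a, which passed the filter through Fto -/-, so they carry no test. The Cd209a probe was not above background on Fto +/+ replicates 2 and 4.

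Over 21 alternatives the log2 difference of Cd209d ran from 1.68 to 2.28, and leaving out any 1 sample gave 1.85 to 2.28. Within slide row 1 it was 2.12 and within row 2 it was 2.01, each with 1 sample against 3. With slide row as a block it was 2.07, and Cd209a differed by 1.68 (limma adjusted p = 0.182). With the replicate number as a block the limma adjusted p of Cd209a was 0.0577. Without the 4 arrays with Rag1 signal, which leaves Fto -/- replicate 2 against 3 controls, Cd209d differed by 1.68 and Cd209a by 2.07. Cd209f then differed by 0.01 and Cd209g by -0.02.

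**Figure D3:**
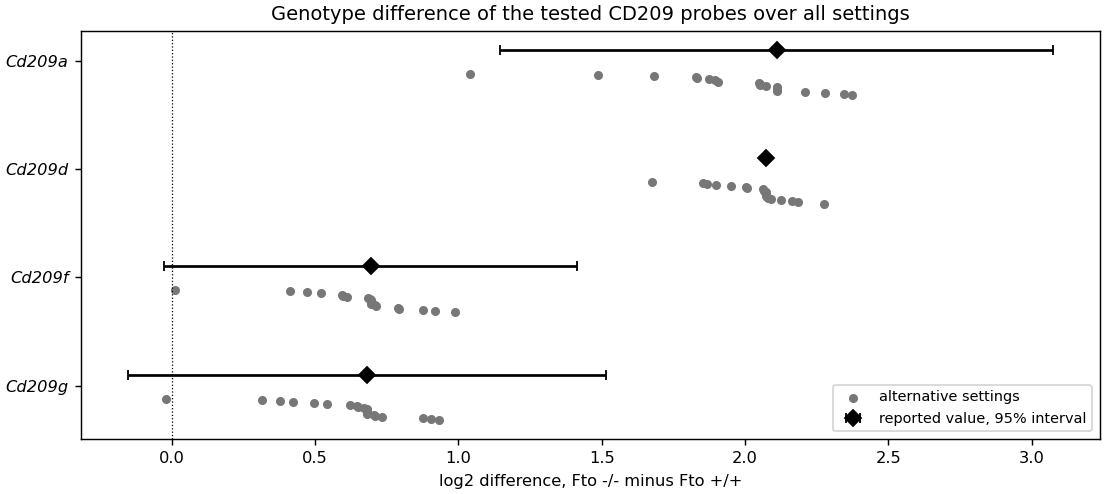
Log2 difference between Fto -/- and Fto +/+ for the 4 tested CD209 probes. Diamonds give the reported value, bars its 95% interval from limma (none is drawn for Cd209d, which chose the family), and grey points the values under 20 (Cd209a) or 21 alternatives. The Cd209a and Cd209d points all lie above 1, and those of Cd209f and Cd209g reach down to 0.01 and -0.02.

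Because these receptors mark myeloid cells, other genes of such cells were read on the same arrays, 1 probe per gene. Of the other C-type lectin receptors of myeloid cells, 9 of 23 listed genes were tested, 0 passed in either direction (0.896% of named genes were higher and 0.904% lower), and 2 had an unadjusted limma p under 0.05, against 20.7% of the 13053 named genes. All 9 differences were above 0 (43.8% over all named genes), with a median of 0.43 on the log2 scale against -0.04 over all named genes. The same held for all 9 genes in each of the T cell and adipocyte lists, and for 1 of 8 endothelial genes. The list level was 0.023, -0.056, 0.065 and -0.888 in Fto +/+ replicates 1 to 4, and between -0.169 and 0.635 in Fto -/- arrays. Only Fto +/+ replicate 4 stood below the Fto -/- arrays. Clec10a, which encodes the galactose-binding lectin MGL1, differed by 0.88 ± 0.36 (SE, adjusted p = 0.240), and Mgl2, its paralogue, by 0.26 ± 0.09 (adjusted p = 0.170). Mrc1, the macrophage mannose receptor gene, differed by 0.49 ± 0.33 (adjusted p = 0.450). Clec9a, Cd207, Clec4e, Clec4f, Clec4g, Clec5a, Clec4a2 and Ly75 were above background on no array.

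Resident macrophage genes did not pass the test. The count was 0 for the 18 tested of 20 listed (1 at an unadjusted limma p under 0.05, against 20.7% of named genes), and their median difference was 0.30. The Fc receptor gene Fcgr1 differed by 0.87 ± 0.50 (SE, limma adjusted p = 0.382), and the macrophage genes Adgre1, Csf1r and Folr2 by 0.35, 0.23 and 0.03. The list level lay between -0.26 and 0.54 in Fto -/- arrays. In Fto +/+ replicates 1 to 4 it was 0.08, 0.01, 0.31 and -0.98, so the genotypes overlapped and only replicate 4 stood below the Fto -/- arrays. With that level as a covariate the log2 difference was 1.90 for Cd209d, 1.83 for Cd209a (limma adjusted p = 0.0463), 0.41 for Cd209f and 0.31 for Cd209g.

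In the dendritic cell list 0 of 14 tested genes passed, and 7 had an unadjusted limma p under 0.05, against 20.7% of all named genes. The genotypes did not overlap in 6 (14.1% of all named genes in either direction), and the median difference was 0.62. These 6 were Cd74, the invariant chain gene, with 1.72 ± 0.37 (SE, adjusted p = 0.0599), the MHC class II genes H2-Ab1 (1.86), H2-Aa (1.53), H2-Eb1 (2.24) and H2-DMa (1.20), and the actin-bundling gene Fscn1 (1.17), with adjusted p values of 0.0802 to 0.150. Fscn1 was well above background on 4 Fto -/- and 0 Fto +/+ arrays, so it passed the filter through Fto -/- and its difference is against controls that were not. These 6 were picked by their values, and the other 8 differed by -0.33 to 0.65. MHC class II genes are also expressed by macrophages and B cells. Irf4 and Irf8, transcription factor genes of dendritic cells, differed by 0.65 and 0.58, Itgax by 0.06, and Zbtb46, which marks conventional dendritic cells, by -0.33 (adjusted p from 0.198 to 0.974). Xcr1 and Ccl22 were above background on no array. The level of this list lay between -0.36 and 0.86 in Fto -/- and between -0.96 and -0.16 in Fto +/+ arrays. Whether the number of such cells has a part in the CD209 differences was not tested.

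Lists of other cells gave the following background. T cell and thymocyte genes had a median difference of 1.62 over 9 tested genes, with list levels of -1.33 to 1.87 in Fto -/- and -1.80 to 1.68 in Fto +/+ arrays, and Rag1 differed by 1.79 (adjusted p = 0.458). Adipocyte genes had a median of 0.80 over 9 genes, fibroblast genes 0.31 over 8, monocyte and neutrophil genes 0.21 over 5, B cell genes 0.63 over 3, smooth muscle genes -0.09 over 8 and endothelial genes -0.22 over 8. In these 6 lists and the T cell list 0 genes passed (between 0 and 3 per list had an unadjusted limma p under 0.05, against 20.7% of named genes). The genes of smallest p were Cd3g (2.54) and Cd3d (2.58) of the T cell receptor complex, the adipocyte genes Cidea (1.88) and Ucp1 (2.90), the fibroblast genes Lum (0.93) and Col1a2 (0.28), the myeloid genes S100a9 (-1.34) and Ccr2 (1.03), the B cell genes Cd22 (0.63) and Ebf1 (-0.34), Lmod1 (-0.78) and Des (0.41) of smooth muscle, and Cdh5 (-0.32) and Vwf (-0.35) of endothelium, with limma adjusted p values of 0.0681 to 0.435. Cd3g, Cd3d, Ccr2 and Rag1 were each well above background on 1 Fto +/+ array and on 3 or 4 Fto -/- arrays. Their differences are thus mostly against controls that were not. Their part in the CD209 differences was not tested. Of the ligands and signalling proteins of DC-SIGN, 11 of 15 listed genes were tested and 0 passed. An unadjusted limma p under 0.05 was found for 3, against 20.7% of named genes. Lsp1, whose product binds the receptor tail, differed by 0.33 ± 0.13 (SE, limma adjusted p = 0.211), and the ligand gene Icam2 by 0.06 ± 0.19 (adjusted p = 0.894). The median of that list was -0.03.

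**Figure D4:**
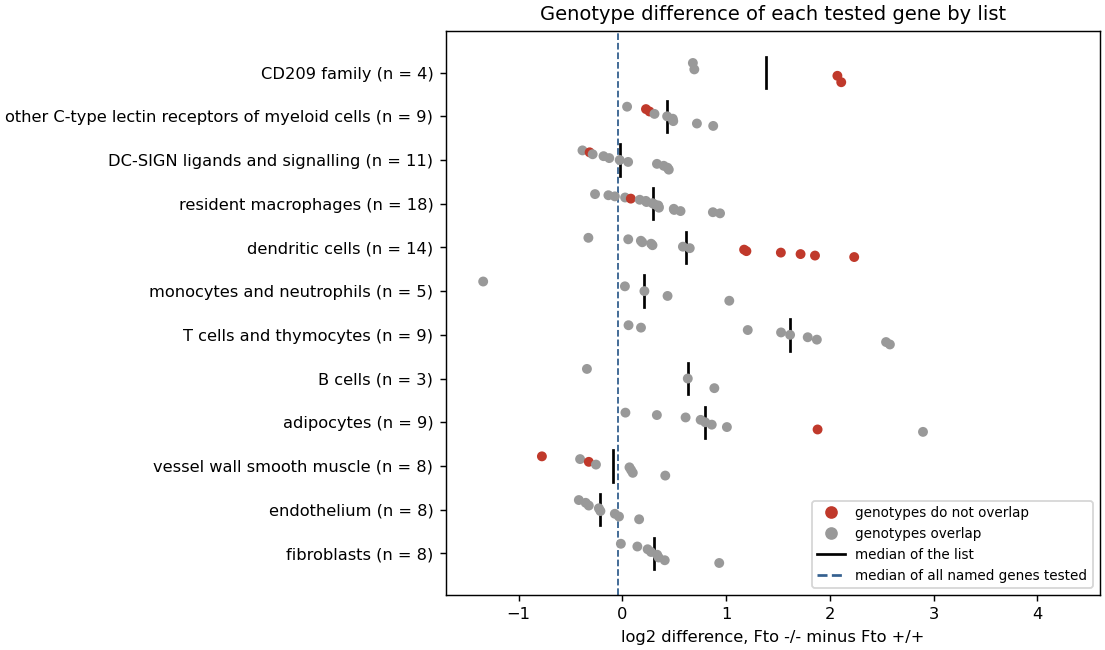
Log2 difference between Fto -/- and Fto +/+ of every tested gene, by list, with the number of tested genes in brackets. Red points are genes whose genotypes do not overlap, black bars the list medians (1.38 for the 4 tested CD209 genes, 0.62 for dendritic cells, 0.30 for resident macrophages), and the dashed line the median of all named genes (-0.04). The CD209 median includes Cd209d, which chose the family, and Cd209a, which passed the filter through Fto -/-, so nothing is read from it.

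On chromosome 8, which also carries Fto, the RefSeq gene order places Fcor, Trappc5, Fcer2a and Clec4g before Cd209a and Evi5l, Prr36, Lrrc8e and Map2k7 after Cd209g, with no other protein-coding gene between the members. Trappc5, of a vesicle-tethering complex, differed by -0.19 (limma adjusted p = 0.373) and Lrrc8e, a subunit of volume-regulated anion channels, by -0.13 (adjusted p = 0.666), with the genotypes overlapping in both. Fcer2a, another C-type lectin gene, was above background on 1 array. Clec4g, Prr36 and Map2k7 were above background on none through their named probes, and Fcor and Evi5l had no named probe.

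Over the 8 arrays the named genes most like Cd209d, among 13052, were Kbtbd12 (Pearson's r = 0.974), Gm16894 (0.968), Fxyd2 (0.963), Ackr1 (0.960) and Orai2 (0.960). Kbtbd12 was also among the 5 most like Cd209a (0.975), after Sec63, Daam2 and Fbln1. For Cd209f they were Clec10a (0.979), the chemokine gene Ccl12 (0.973), Naip2, Shtn1 and Nhsl1, and for Cd209g Plcl2 (0.991), Slco2b1, C1ra, Add3 and Unc93b1. By deviations from the genotype means, the nearest genes were Angel1 for Cd209d (0.977), Rassf3 for Cd209a (0.990), Nhsl1 for Cd209f (0.994) and Gpc3 for Cd209g (0.992). With 8 arrays and so many genes, values this high are picked from a long list and are a description only.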

How the data were processed

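Thoracic aorta RNA of 4 Fto -/- and 4 Fto +/+ samples was read on 1-colour Agilent arrays. Per the file headers, the scanner files carry Agilent Feature Extraction 11.0.1.1 output: for every spot a processed intensity after subtraction of background, with no dye normalisation, and a flag for signal well above background. The series table the authors deposited holds log2 values centred on 0 per probe, with column medians of -0.01 to 0.005. Its scale and direction were found by setting it against the scanner values (r of deviations 0.987 to 0.999), and which normalisation was applied remains unknown here.

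The 3671 control spots and spots flagged as outliers were left out, and spots of a probe were averaged. Log2 processed intensity minus the 75th percentile of the array was tested with limma 3.58.1 in R 4.3.3 for the 25292 probes above background on at least 4 of 8 arrays, adjusted by Benjamini-Hochberg over all of them. The script was tested on simulated data. Probes were named through RefSeq accessions (28331 of 55681 probes, gene table of GRCm38.p6), and a gene was read by its tested probe of highest mean. Deviations of same-numbered samples had r = 0.155, -0.023, -0.019 and -0.041, and the main fit does not pair them. Low values of r cannot show that the samples were unpaired. Members and lists were chosen with earlier results of these data known. The genes named are all CD209 probes, Fto, in each other list those past the threshold (at most 4) or else the 2 of smallest p, the 5 most alike to each tested member by either measure (given in part), and the genes around the cluster (4 each side). Other list genes named were chosen after their values were seen. Of the genes the rule names, 2 are not reported here. Alternatives covered background correction, normalisation, filters, blocks, a macrophage covariate and left-out samples, and normexp used the median signal because the scanner files used here carry that column. Promoter sequences are from RefSeq.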

Additional observations from a re-analysis of the deposited data

Results flagged for a closer look

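Levels are log2 intensity minus the 75th percentile of the array. In 2 of the 14 groups of 4 samples examined (7 detected CD209 probes in 2 genotypes), 1 sample stood apart from the other 3 by more than Dixon's 95% critical value for the gap over the range, and chance alone flags about 1 group in 20. The Cd209c probe was at -3.72 in Fto +/+ replicate 1 (intensity 28.4), with the other 3 controls at -5.44 to -5.29. The Cd209e probe was at -4.88 in Fto +/+ replicate 4 (intensity 10.9), with the other 3 controls at -5.49 to -5.40. Neither sample was well above background for its probe.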

How the results depend on the processing

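The sign of the difference was kept for Cd209a (20 alternatives), Cd209d and Cd209f (21 each), and Cd209g turned to -0.02 without the 4 arrays with Rag1 signal. No CD209 probe was lower by the threshold in any alternative. Nothing is read from the count of CD209 probes higher in Fto -/-. It holds Cd209d, which chose the family, and in some alternatives Cd209a, which passed the filter through Fto -/-. The count was 1 in the reported fit and in every fit without 1 sample. It was 2 with normexp background correction, with a moderated variance that follows the mean (trend and robust) and with the macrophage level as a covariate, and 0 with the replicate block, with slide row as a block, within each slide row and without the Rag1 arrays. Of the 9 CD209 probes 4 were detected as reported, 7 by the rule of at least 1 array and 7 by the scanner's test of positive and significant signal on at least 4 arrays.

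Over all probes 213 were higher and 206 lower. The counts were 61 and 35 with no filter on dim probes, 90 and 42 with the replicate block, 33 and 13 with slide row as a block, 0 and 0 within row 1 (1299 and 812 at an unadjusted limma p under 0.05), 1 and 0 within row 2 (791 and 599), 0 and 0 without the Rag1 arrays (1299 and 995), and 563 and 407 with the macrophage covariate. Without 1 sample they ran from 55 to 499 and from 46 to 387, the lowest without Fto -/- replicate 4 and the highest without Fto +/+ replicate 4. In the lists, single genes passed in some alternatives: Cd74 in 3 and Fscn1 in 1, Folr2 (-0.41) with the macrophage covariate, Lmod1 (-0.70 and -0.78) in 2, and Cd22, Itgam, Cd3g and Ucp1 in 1 each. Where a fit leaves 1 sample in a genotype, that sample is assumed to vary like the others. Signal near background limits Cd209b, Cd209c and Cd209e.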
